A study of Mus musculus with 16 samples.

Results

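The genes described here encode receptors on the surface of platelets, the cell fragments that plug a damaged vessel. The set holds 9 genes: Itga2b, Itgb3, Gp5, Gp9, Gp1ba, Gp1bb, Gp6, Clec1b and Treml1. A gene was measured where a probe set of the deposited table mapped to its symbol alone. That held for 6 of the 9, of 19934 gene symbols with a probe set in all, and each of the 6 had 1 probe set. Gp1bb lay only on a probe set shared with Septin5 and is given no value, and Gp1ba and Gp6 were not analysed here. All 6 measured genes passed the filter on dim probe sets, a log2 signal above 3.74 on at least 2 arrays.

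The 16 arrays measured total RNA from single-cell suspensions of mouse fetal liver, 1 array labelled female and 1 labelled male in each of 8 groups. At E14.5 and at E12.5, embryos carried both the ERG transgene and the GATA1s knock-in allele (ERG/GATA1s), the GATA1s allele alone (labelled WT/GATA1s, here GATA1s), the transgene alone (labelled ERG Tg, here ERG), or neither (wild type, WT). The series set out to compare genes activated or repressed when ERG meets full-length GATA1 or its shortened form, GATA1s. The sources used here do not give the promoter or species of the transgene, the copies of the X-linked allele in females, or how many embryos made up a sample. The p-values therefore reflect only how far these samples spread, which may be technical.

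Platelets are shed by megakaryocytes, large cells that fetal liver forms from a precursor shared with red cells. Their receptors work in groups. Itga2b (CD41) and Itgb3 (CD61) together form integrin alphaIIb-beta3, which binds fibrinogen and links platelets to each other; Itga2b also marks early blood progenitors, and Itgb3 has a second partner in other cells. Gp1ba, Gp1bb, Gp9 and Gp5 make up the GPIb-IX-V complex, which catches von Willebrand factor on the vessel wall, with Gp9 needed for the complex to reach the surface. Gp6 binds collagen and signals through the chain encoded by Fcer1g. Clec1b (CLEC-2) binds podoplanin and signals through the kinase Syk, and Treml1 (TLT-1) is held in granules and moves to the surface of activated platelets. GATA1, RUNX1 and ETS-family factors such as FLI1 and ERG are known to act on promoters of megakaryocyte genes.

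The 250 bases before the start of the gene are given first for 3 members: Gp5, which rose in E14.5 ERG liver, its complex partner Gp9, which did not, and Itga2b, whose promoter is a textbook megakaryocyte promoter. The sequences are RefSeq's, from a table on build GRCm38.p6, read 5′ to 3′ on the strand of the gene, and capitals mark matches to the GATA and ETS letters given below.
Gp5 (chr16:30310782-30311031, minus strand): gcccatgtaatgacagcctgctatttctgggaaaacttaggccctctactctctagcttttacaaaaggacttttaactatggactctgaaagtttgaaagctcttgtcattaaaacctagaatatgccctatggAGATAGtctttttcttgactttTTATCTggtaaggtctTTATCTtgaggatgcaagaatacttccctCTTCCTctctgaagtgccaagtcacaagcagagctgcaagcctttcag
Gp9 (chr6:87777820-87778069, plus strand): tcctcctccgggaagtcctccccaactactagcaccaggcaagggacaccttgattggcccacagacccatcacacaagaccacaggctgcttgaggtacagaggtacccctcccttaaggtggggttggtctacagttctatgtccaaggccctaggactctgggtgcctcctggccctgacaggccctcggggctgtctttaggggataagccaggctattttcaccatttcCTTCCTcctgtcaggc
Itga2b (chr11:102469884-102470133, minus strand): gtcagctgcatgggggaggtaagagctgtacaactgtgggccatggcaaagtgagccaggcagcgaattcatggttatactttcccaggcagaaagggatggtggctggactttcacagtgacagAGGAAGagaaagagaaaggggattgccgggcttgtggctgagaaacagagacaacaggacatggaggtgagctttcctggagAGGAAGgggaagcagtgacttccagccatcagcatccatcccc
The table held 5 of the 6 measured genes. It had no entry for Itgb3, which fell in E14.5 ERG liver, so that window was not searched. Both strands were searched for GATA letters (AGATAA or TGATAA, and AGATAG or TGATAG), ETS letters (CGGAAG or AGGAAG) and RUNX letters (TGTGGT), and no match overlapped another. Gp5 had 3 GATA matches, at -115, -93 and -77 from the start, and 1 ETS match at -48. It was the only one of the 5 windows with both. Clec1b, on chromosome 6, had 1 GATA match at -189 and no ETS match. Itga2b had ETS matches at -125 and -43. Gp9 had an ETS match at -16 and a RUNX match at -171, left in lower case here. Treml1, on chromosome 17, had none of these letters in its window. Over all 32851 windows of the same length, 26.5% held the GATA letters, 39.2% the ETS letters, 14% the RUNX letters and 9.21% both GATA and ETS letters. With 2 of 5 windows holding GATA letters and 3 of 5 holding ETS letters, the counts are too small to set against those shares, and a match is a description of letters, not a site.

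Array medians ran from 4.79 to 4.94 on the log2 scale, and the median residual SD after groups and labelled sex were fitted was 0.1615. Signal of the members varied more than that within groups, with residual SDs from 0.206 for Treml1 to 0.402 for Clec1b. Xist and 3 Y-linked genes opposed the labelled sex of 3 arrays: E14.5 ERG/GATA1s female, E12.5 GATA1s male and E12.5 ERG/GATA1s male. On 2 more arrays both kinds of marker were high: log2 Xist was 10.03 and the Y-linked mean 5.273 on E14.5 ERG male, and 9.35 and 4.947 on E12.5 WT male. By these markers both E14.5 ERG/GATA1s arrays looked male, with Xist at 4.22 and 4.19 and Y-linked means of 6.5 and 6.383. Both E12.5 GATA1s arrays (Xist 10.02 and 9.83) and both E12.5 ERG/GATA1s arrays (10.08 and 9.51) looked female, with Y-linked means of 3.6 to 3.92. The term for labelled sex, and pairs by labelled sex, cannot adjust for this. Genotype, sex and copies of the X-linked allele are thus partly mixed in comparisons that use these groups. All arrays were kept as labelled, and counts without the 3 that oppose their label are given beside the results. The E12.5 ERG/GATA1s male array also stood apart in the spread of its log2 values, with an SD of 2.029, against 2.132 to 2.252 on the others. At E14.5 Erg, read by a mouse probe set, differed by 0.26 ± 0.14 (SE) between ERG and WT and did not pass (adjusted p = 0.673). The megakaryocyte gene Pf4, the platelet chemokine, averaged 10.5 in GATA1s and 9.425 in WT over both stages. In such bulk RNA, fewer cells of a type and less RNA per cell cannot be told apart.

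The integrin chains were high wherever the GATA1s allele was carried, with or without the transgene. Values below are log2 signal on the array labelled female and then the array labelled male. Itgb3 at E14.5 was 9.51 and 9.32 in ERG/GATA1s, 8.93 and 9.53 in GATA1s, 6.51 and 7.04 in ERG, and 8.01 and 8.0 in WT. At E12.5 it was 9.24 and 9.10 in ERG/GATA1s, 9.44 and 9.58 in GATA1s, 7.84 and 7.99 in ERG, and 8.52 and 7.90 in WT. All 8 arrays with the allele, from 8.93 to 9.58, lay above all 8 without it, from 6.51 to 8.52, a separation found for 0.511% of all probe sets, and the 2 lowest were those of E14.5 ERG. Among group means, the 4 groups with the allele lay at most 0.185 apart from one to the next and overlapped in turn, and the lowest of them lay 0.96 above E12.5 WT with no overlap, whereas E14.5 ERG lay 1.14 below the next group, E12.5 ERG, with no overlap. Itga2b at E14.5 was 9.0 and 8.78 in ERG/GATA1s, 7.95 and 8.54 in GATA1s, 7.80 and 7.47 in ERG, and 7.19 and 6.90 in WT. Its E12.5 signal was 9.0 and 8.81 in ERG/GATA1s, 9.05 and 9.0 in GATA1s, 7.44 and 7.67 in ERG, and 8.13 and 7.61 in WT. Here E14.5 WT was the lowest group, 0.51 below E12.5 ERG, and the E14.5 GATA1s female array (7.95) lay within the range of arrays without the allele (6.90 to 8.13). Its 3 highest groups, E12.5 GATA1s and ERG/GATA1s at both stages, overlapped each other.

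The measured chains of the GPIb-IX-V complex did not share 1 pattern. Gp9 at E14.5 was 9.37 and 9.31 in ERG/GATA1s, 8.96 and 9.79 in GATA1s, 7.55 and 8.04 in ERG, and 8.40 and 8.77 in WT. Its E12.5 signal was 9.68 and 9.53 in ERG/GATA1s, 10.22 and 10.27 in GATA1s, 8.77 and 8.24 in ERG, and 9.26 and 8.71 in WT. E12.5 GATA1s was highest, 0.64 above its neighbour E12.5 ERG/GATA1s, and E14.5 ERG was lowest, 0.71 below E12.5 ERG, neither with overlap. Gp5 at E14.5 was 7.71 and 7.64 in ERG/GATA1s, 6.32 and 7.26 in GATA1s, 7.76 and 7.51 in ERG, and 6.31 and 6.27 in WT. At E12.5, Gp5 was 6.71 and 6.44 in ERG/GATA1s, 7.58 and 7.34 in GATA1s, 5.91 and 6.12 in ERG, and 6.37 and 5.73 in WT. So E14.5 ERG, the lowest group for Gp9, was among the 3 highest for Gp5, overlapping with E14.5 ERG/GATA1s and E12.5 GATA1s. The 2 arrays of E14.5 GATA1s were 6.32 and 7.26, one at the WT level of that stage and one well above it.

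Clec1b and Treml1 both peaked in E14.5 ERG/GATA1s. Clec1b at E14.5 was 8.39 and 8.20 in ERG/GATA1s, 7.09 and 8.31 in GATA1s, 6.31 and 6.26 in ERG, and 6.90 and 6.71 in WT. Its E12.5 signal was 6.95 and 6.42 in ERG/GATA1s, 7.28 and 7.31 in GATA1s, 6.02 and 6.04 in ERG, and 6.43 and 5.77 in WT. The E14.5 GATA1s arrays were the farthest apart of any group and member, with a mean of 7.70 ± 0.863 (SD, n = 2), and overlapped with E14.5 ERG/GATA1s. Treml1 at E14.5 was 9.38 and 9.25 in ERG/GATA1s, 8.38 and 8.99 in GATA1s, 8.24 and 8.31 in ERG, and 7.51 and 7.68 in WT. At E12.5, Treml1 was 8.47 and 8.52 in ERG/GATA1s, 9.03 and 8.96 in GATA1s, 7.24 and 7.53 in ERG, and 7.91 and 7.55 in WT. As for Itgb3, all 8 arrays with the allele (8.38 to 9.38) lay above all 8 without it (7.24 to 8.31), though E14.5 ERG came within 0.07 of them on its male array.

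**Figure D1:**
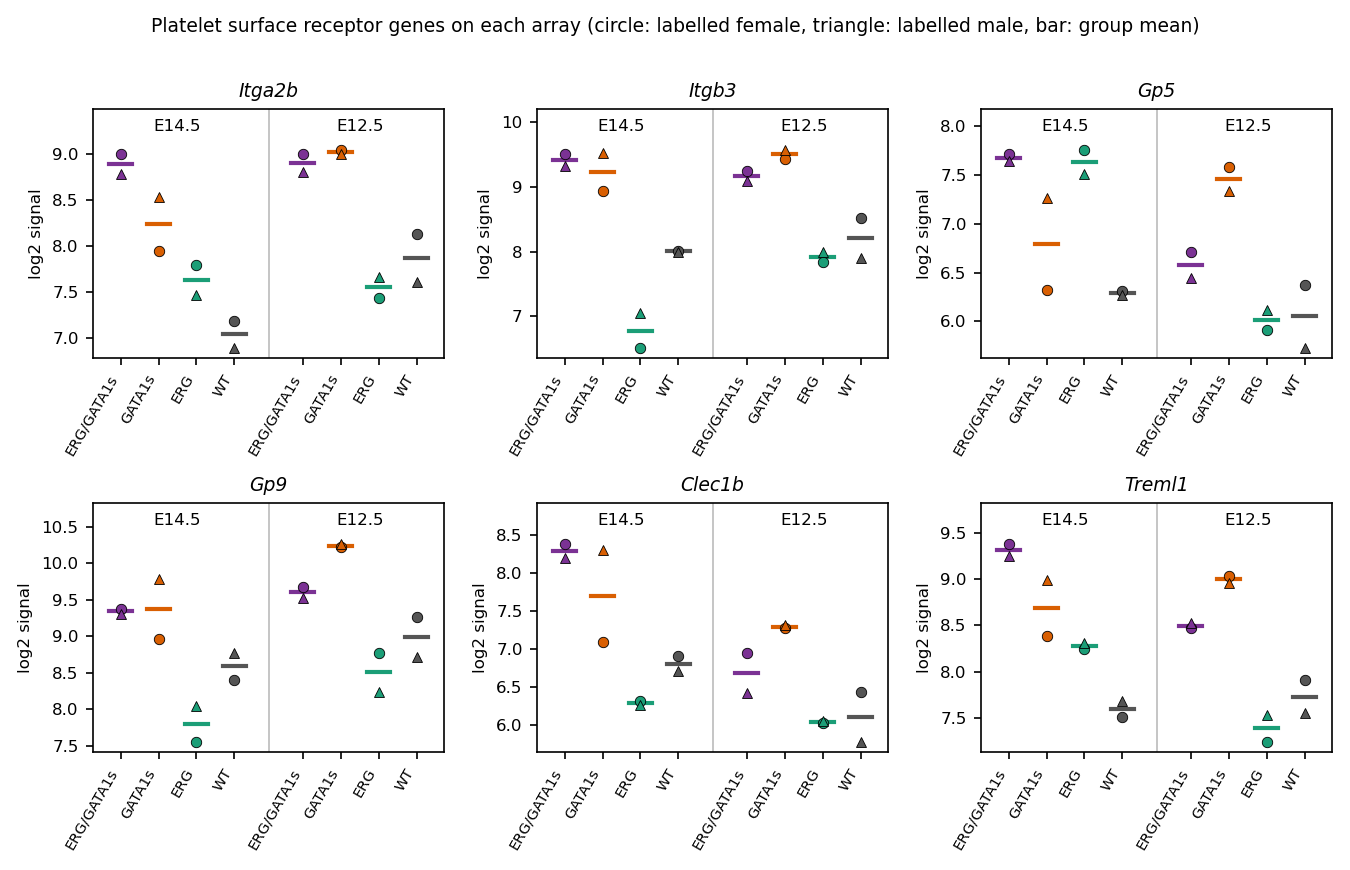
Log2 signal of the 6 measured receptor genes (vertical axes, each with its own range) on every array, in 4 genotypes at E14.5 and at E12.5. Circles are arrays labelled female, triangles arrays labelled male and bars the group mean. Itgb3 and Treml1 were higher on all 8 arrays with the GATA1s allele than on all 8 without it, and E14.5 ERG was low for Itgb3 (6.51 and 7.04) and high for Gp5 (7.76 and 7.51).

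Which receptor genes the GATA1s allele changed was asked with GATA1s against WT, 4 arrays against 4 over both stages. All 6 rose, by 0.95 to 1.26 on the log2 scale, or about double the linear signal. By limma, 3.81% of the 16258 probe sets tested were called in either direction and 2.18% were called higher. The members' median difference was 1.11, against 0.005 over everything tested. Treml1 rose by 1.18 ± 0.13 (SE; 2.26-fold, adjusted p = 0.000392) and Itgb3 by 1.26 ± 0.16 (2.40-fold, adjusted p = 0.000991). Itga2b rose by 1.18 ± 0.15 (2.26-fold, adjusted p = 0.000901). Gp9, Clec1b and Gp5 rose by 1.03 ± 0.19, 1.04 ± 0.22 and 0.95 ± 0.18, and each of the 6 was higher in 4 of 4 pairs of arrays of 1 stage and labelled sex. The calls on Itga2b, Itgb3 and Treml1 held without any 1 array. Those on Gp5, Gp9 and Clec1b were lost without the E12.5 WT male or the E12.5 GATA1s female array, which left 3 of 6, and that on Clec1b also without the E12.5 GATA1s male array. Without the 3 arrays that oppose their sex label, Itga2b, Itgb3 and Treml1 were called and the other 3 were not.

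By stage, the GATA1s effect was called for 5 genes at E12.5 and for 3 at E14.5. At E12.5, where 1.33% of all probe sets were called and 0.824% higher, differences ran from 1.16 for Itga2b (adjusted p = 0.0211) to 1.41 ± 0.26 for Gp5 (2.66-fold, adjusted p = 0.0211). Clec1b was 1.20 ± 0.31 higher and did not pass (adjusted p = 0.0740). At E14.5, where 1.07% were called and 0.757% higher, Itga2b (1.20), Itgb3 (1.23) and Treml1 (1.09) rose, each about 2.1-fold to 2.3-fold. The other members there were higher in GATA1s by 0.895 ± 0.31 for Clec1b, 0.79 ± 0.27 for Gp9 and 0.50 ± 0.26 for Gp5, with adjusted p of 0.193, 0.188 and 0.439. None of the 6 passed the test of the difference between stages, in which 0.351% of probe sets were called. At an unadjusted p under 0.05 stood 1 of the 6, beside 9.86% of probe sets. All 5 calls at E12.5 were lost without the E12.5 WT male array or either E12.5 GATA1s array, and all 3 at E14.5 without the WT female or the GATA1s male array. No member was called at either stage alone without the 3 arrays that oppose their sex label.

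With the ERG transgene alone, 1 receptor gene rose and 1 fell at E14.5. Gp5 rose to a mean of 7.635 ± 0.177 in ERG, against 6.29 ± 0.028 in WT (SD, n = 2 each), a difference of 1.345 ± 0.26 (SE; 2.54-fold, adjusted p = 0.0170). Itgb3 fell to 6.775 ± 0.375 in ERG, against 8.005 ± 0.007 in WT, a difference of -1.23 ± 0.23 (2.35-fold lower, adjusted p = 0.0131). At this stage 1.69% of all probe sets were called, 1.19% higher and 0.504% lower. The other 4 did not pass. Gp9 differed by -0.79 ± 0.27 and Clec1b by -0.52 ± 0.31 (adjusted p = 0.243 and 0.730), and Treml1 by 0.68 ± 0.18 and Itga2b by 0.59 ± 0.21 (adjusted p = 0.0960 and 0.277). For all 6, the 2 ERG arrays did not overlap with the 2 WT arrays, as was so for 35.4% of all probe sets. The 2 chains of 1 integrin differed from WT with opposite signs, as did the 2 measured chains of GPIb-IX-V, although only Itgb3 and Gp5 passed. The call on Itgb3 was lost without the E14.5 WT female or ERG female array, and that on Gp5 without the WT female or either ERG array, with adjusted p up to 0.359 and 0.320. Without the 3 arrays that oppose their sex label, none of which is in this comparison, the adjusted p was 0.0771 for Itgb3 and 0.0958 for Gp5.

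At E12.5, no member and no probe set was called by limma in ERG against WT (0%), with 666 probe sets and none of the 6 members at an unadjusted p under 0.05. The 6 differences ran from -0.48 for Gp9 to -0.035 for Gp5. Over both stages, no member was called, where 0.283% of probe sets were, and 3 of the 6, beside 7.69% of probe sets, had an unadjusted p under 0.05. The widest differences over both stages were -0.76 ± 0.16 for Itgb3 (adjusted p = 0.0737) and 0.655 ± 0.18 for Gp5 (adjusted p = 0.207). The difference of the ERG effect between stages was 1.38 ± 0.37 for Gp5 (adjusted p = 0.233) and -0.935 ± 0.32 for Itgb3 (adjusted p = 0.454). No member passed that test, in which 0.228% of probe sets were called, and 4 of the 6, beside 7.59% of probe sets, had an unadjusted p under 0.05.

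**Figure D2:**
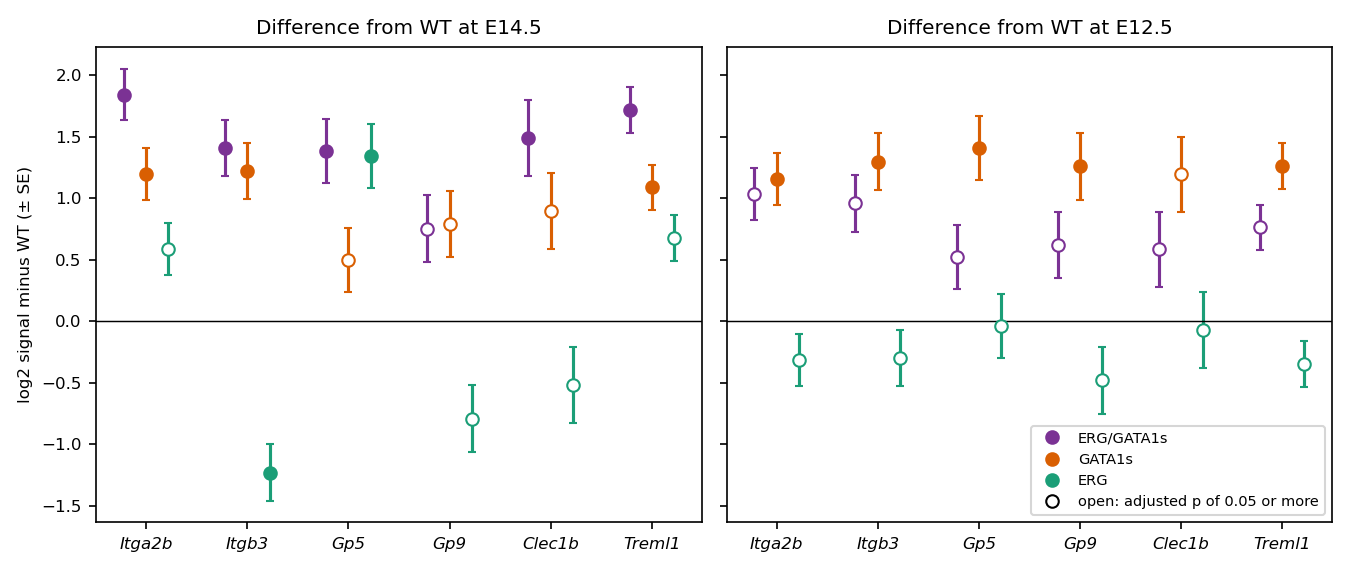
Difference of each genotype from WT in log2 signal (vertical axis, ± SE) for the 6 genes, at E14.5 and at E12.5. Filled points passed limma's test and open points did not. At E14.5 the ERG points lay between -1.23 for Itgb3 and 1.345 for Gp5, whereas those of ERG/GATA1s all lay above 0.

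With both changes, the receptor genes were above WT. Over both stages all 6 rose in ERG/GATA1s against WT, with 10.6% of probe sets called and 4.06% called higher, by 0.69 ± 0.19 for Gp9 (adjusted p = 0.0344) up to 1.44 ± 0.15 for Itga2b (2.71-fold, adjusted p = 0.000191). The calls on Itga2b, Itgb3, Gp5 and Treml1 held without any 1 array, that on Clec1b was lost without the E12.5 WT male array, and that on Gp9 was lost without any of 8 arrays. At E14.5, 5 of 6 rose (9.16% of probe sets called, 4.47% higher): Itga2b by 1.845 ± 0.21 (3.59-fold), Treml1 by 1.72 ± 0.18 (3.29-fold), Clec1b by 1.49 ± 0.31, Itgb3 by 1.41 ± 0.23 and Gp5 by 1.385 ± 0.26. Gp9 was 0.755 ± 0.27 higher and did not pass (adjusted p = 0.106). The call on Clec1b was lost without the ERG/GATA1s female array. At E12.5 none of the 6 passed, where 0.00615% of probe sets did. The 6 differences there ran from 0.525 for Gp5 to 1.035 for Itga2b (adjusted p = 0.337 and 0.138), and 4 of the 6, beside 15.8% of probe sets, had an unadjusted p under 0.05. Without the 3 arrays that oppose their sex label, Itga2b, Itgb3 and Treml1 were called over both stages, and Itga2b and Treml1 at E14.5.

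Against ERG alone, ERG/GATA1s liver had more of 5 receptor transcripts, and Gp5 did not pass. Over both stages Itgb3 rose by 1.95 ± 0.16 (3.86-fold, adjusted p = 4.47e-05), Clec1b by 1.33 ± 0.22, Gp9 by 1.32 ± 0.19, Itga2b by 1.30 ± 0.15 and Treml1 by 1.08 ± 0.13. In this comparison 9.02% of probe sets were called, 4.02% higher, and the 5 calls held without any 1 array. Gp5 was 0.30 ± 0.18 higher (adjusted p = 0.354). At E14.5, with 7.34% called and 3.6% higher, Itgb3 rose by 2.64 ± 0.23 (6.23-fold, adjusted p = 4.44e-05) and Clec1b by 2.01 ± 0.31 (4.03-fold, adjusted p = 0.00147). Gp9, Itga2b and Treml1 rose there by 1.545 ± 0.27, 1.255 ± 0.21 and 1.04 ± 0.18, and Gp5 differed by 0.04 ± 0.26 (adjusted p = 0.975). The call on Gp9 was lost without the ERG female array and that on Treml1 without the ERG/GATA1s female array. At E12.5, with 1.05% called and 0.474% higher, Itga2b (1.35), Itgb3 (1.255) and Treml1 (1.11) rose and the other 3 did not pass, and all 3 calls were lost without either ERG array or without the ERG/GATA1s male array. Without the 3 arrays that oppose their sex label, Itga2b, Itgb3 and Treml1 were called over both stages, Itgb3 alone at E14.5 and none at E12.5.

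Whether ERG added to GATA1s was asked with ERG/GATA1s against GATA1s. No member passed over both stages, where 0.117% of probe sets were called and none of the 6, beside 7.77% of probe sets, had an unadjusted p under 0.05. At E12.5 all 6 were lower in ERG/GATA1s, with a difference of -0.885 ± 0.26 for Gp5 at the widest (adjusted p = 0.589), and 0% of probe sets were called; 3 members and 999 probe sets had an unadjusted p under 0.05. At E14.5, where 1.63% were called, Gp5 was 0.885 ± 0.26 higher, Itga2b 0.645 ± 0.21 and Treml1 0.63 ± 0.18. Their adjusted p were 0.127, 0.186 and 0.126. At that stage 3 of the 6, beside 10.1% of probe sets, had an unadjusted p under 0.05. The comparison over both stages averaged these with the differences at E12.5, where all 6 were lower, whereas 5 of the 6 were higher at E14.5. The GATA1s effect with and without the transgene shares no arrays, and the interaction tests their difference. At E14.5 it was 1.415 ± 0.32 for Itgb3 (adjusted p = 0.211) and 1.115 ± 0.44 for Clec1b (adjusted p = 0.815). No member passed there, where 0.0984% of probe sets did, and 2 of the 6, beside 4.91% of probe sets, had an unadjusted p under 0.05. At E12.5 the interaction was largest in size for Gp5, at -0.85 ± 0.37 (adjusted p = 0.836). No probe set passed there (0%), and 963 had an unadjusted p under 0.05, 1 of them a member. By Xist and Y-linked signal both E14.5 ERG/GATA1s arrays looked male, whereas the E14.5 GATA1s arrays matched their labels (Xist 10.53 and 3.97). Transgene, sex and copies of the X-linked allele are thus partly mixed at E14.5, in ERG/GATA1s against GATA1s and in the interaction.

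**Figure D3:**
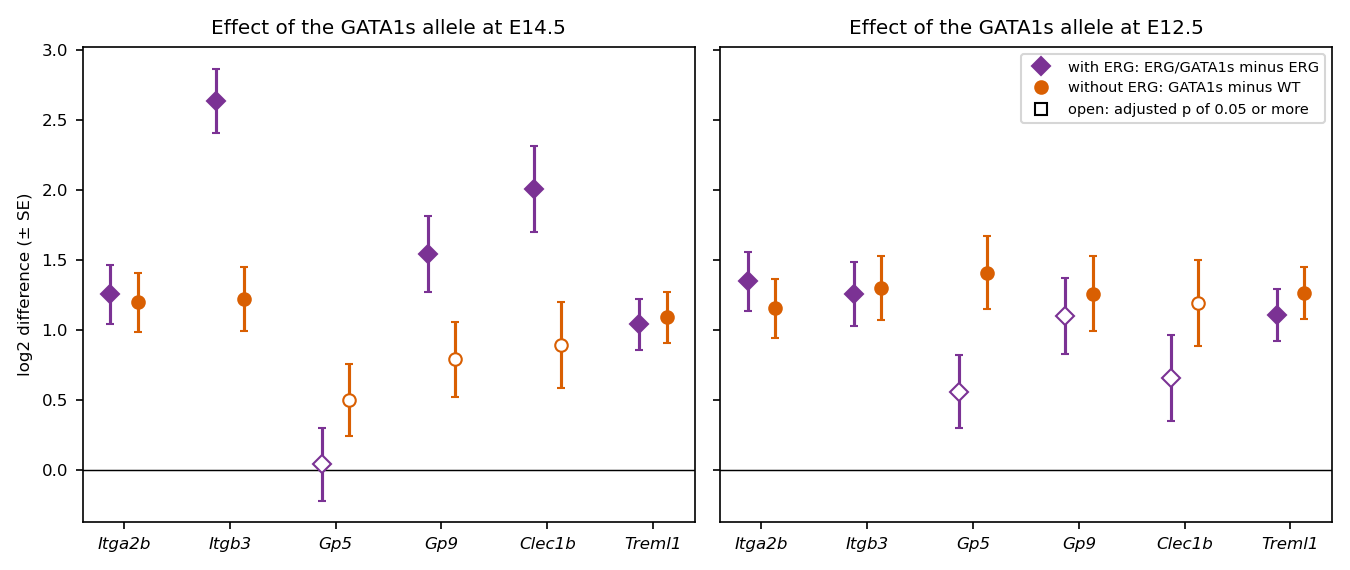
Effect of the GATA1s allele in log2 signal (vertical axis, ± SE) with the transgene (ERG/GATA1s minus ERG, diamonds) and without it (GATA1s minus WT, circles), at E14.5 and at E12.5. Filled points passed limma's test. At E14.5 Itgb3 lay at 2.64 with the transgene and 1.225 without, a difference that did not pass the interaction test (adjusted p = 0.211), and Gp5 lay at 0.04 and 0.50.

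From E12.5 to E14.5, between 1 and 3 members changed in each genotype. In ERG/GATA1s, Clec1b rose by 1.61 ± 0.31 (3.05-fold, adjusted p = 0.00280), Gp5 by 1.10 ± 0.26 and Treml1 by 0.82 ± 0.18, with 21.9% of probe sets called and 14% higher. In ERG, Gp5 rose by 1.62 ± 0.26 (3.07-fold, adjusted p = 0.00111), Treml1 rose by 0.89 ± 0.18 and Itgb3 fell by 1.14 ± 0.23, with 17.6% called, 12.7% higher and 4.88% lower. In GATA1s, Gp9 fell by 0.87 ± 0.27 and Itga2b by 0.78 ± 0.21 (22.5% called, 8.67% lower). In WT, Itga2b fell by 0.825 ± 0.21 (adjusted p = 0.0159, 18.2% called and 6.75% lower). Counts of 1 to 3 of 6 stand beside backgrounds of 17.6% to 22.5%. The calls on Gp5 and Treml1 in ERG held without any 1 array, and that on Itgb3 in ERG was lost without the E12.5 ERG male or the E14.5 ERG female array. In ERG/GATA1s all 3 calls were lost without the E12.5 male array, those on Gp5 and Treml1 also without the E14.5 female array, and that on Gp5 without the E14.5 male array. In GATA1s both calls were lost without either E12.5 array or the E14.5 female array, and in WT the call was lost without the E12.5 female or the E14.5 male array. Without the 3 arrays that oppose their sex label, the calls in ERG and WT held and those in ERG/GATA1s and GATA1s were lost. By Xist and Y-linked signal, both ERG/GATA1s arrays looked male at E14.5 and female at E12.5. Stage, sex and copies of the X-linked allele cannot be told apart in that genotype.

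The members spread widest in E14.5 ERG. With each gene centred on its own mean over the 8 groups, the SD over the 6 members was 0.907 in E14.5 ERG and 0.159 to 0.437 in the other 7 groups. Over the 8 group means, which share arrays and normalization, Itgb3 and Gp9 correlated at r = 0.943, whereas Gp5 correlated with Itgb3 at 0.17 and with Gp9 at 0.157. With Treml1, Clec1b and Itga2b, Gp5 correlated at 0.825, 0.5945 and 0.519. The mean profile of the 6 was most like those of Plxna4 (r = 0.989), Tnfaip8 (0.982), Ckb (0.980), Mdm1 (0.978) and Cers4 (0.972), over the same 8 group means. Of single genes, Fcer1g, the signalling chain of Gp6, lay nearest to Itgb3 (r = 0.995), a gene singled out after its values were seen.

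Other platelet receptors also rose with the GATA1s allele. Of 25 tested from a list of 28, 11 rose and none fell in GATA1s against WT over both stages, where 2.18% of probe sets were called higher. The median was 0.58, against 0.005 over all probe sets. The largest rises were those of Cd226 (DNAM-1, an adhesion receptor; 1.46 ± 0.12), Mpig6b (the inhibitory receptor G6b-B; 1.23 ± 0.20), F2rl2 (the thrombin receptor subunit PAR3; 1.23 ± 0.17) and P2rx1 (an ATP-gated channel; 1.19 ± 0.17). In ERG against WT at E14.5, none of the 25 passed in either direction, where 1.69% of probe sets did. In ERG/GATA1s against WT at that stage, 13 rose and 1, the scavenger receptor Cd36, fell by 0.965 ± 0.27. There 9.16% of probe sets were called and 4.47% higher.

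Signalling partners inside the cell gave like counts. In GATA1s against WT over both stages 10 of 22 rose and none fell (median 0.36), beside 2.18% of probe sets called higher. The largest rises were those of Lat, the adaptor that Gp6 and Clec1b signals pass through (1.38 ± 0.16), and Plek (pleckstrin, 1.30 ± 0.16). Rasgrp2 (an activator of Rap1, upstream of the integrin, 1.11 ± 0.13) and Lcp2 (SLP-76, 0.80 ± 0.14) came next. In ERG against WT at E14.5, Fermt3, the kindlin that activates integrin alphaIIb-beta3, rose by 1.53 ± 0.17 (2.89-fold, adjusted p = 0.000466) and Vav1 by 0.82 ± 0.19, while Plcg2, a phospholipase of the Gp6 and Clec1b pathway, fell by 0.87 ± 0.19. There 1.19% of probe sets were called higher and 0.504% lower. In ERG/GATA1s against ERG at E14.5, 10 of 22 rose and none fell, where 3.6% of probe sets were called higher. Lat rose by 2.53 ± 0.23, Rasgrp2 by 1.86 ± 0.18, Plcg2 by 1.85 ± 0.19 and Fcer1g by 1.79 ± 0.20. Of 12 ligands, Thbs1 (0.95 ± 0.16) and Vwf (0.44 ± 0.11) rose in GATA1s over both stages. The plasma ligands Vtn, Fgg, Fgb and Fn1 fell in GATA1s at E12.5. Their differences were -1.605 ± 0.34, -1.395 ± 0.31, -1.245 ± 0.23 and -0.82 ± 0.18. There 5 of 11 hepatocyte markers, 2 of them among those ligands, also fell, beside 1.33% of probe sets called in either direction. The part of hepatocyte content in this was not tested.

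Among 16 regulators of megakaryocyte genes, Gata2 rose by 0.70 ± 0.16, Mef2c by 0.68 ± 0.15 and Runx1 by 0.65 ± 0.13 in GATA1s against WT over both stages, and Lmo2 fell by 0.58 ± 0.10. In ERG against WT at E14.5 only Gata2, the factor that precedes GATA1 in progenitors, rose, by 2.365 ± 0.23 (5.15-fold, adjusted p = 0.000198), and Fli1, an ETS factor of megakaryocytes, differed by -0.505 ± 0.18 (adjusted p = 0.272). Gata1 differed there by 0.035 ± 0.17 (adjusted p = 0.996). In ERG against WT at E14.5, 1.69% of probe sets were called and 1.19% higher. In GATA1s against WT over both stages, 3.81% were called and 2.18% higher.

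Megakaryocyte genes that are not receptors also rose with the GATA1s allele. In GATA1s against WT over both stages, 16 of 18 tested rose and none fell (median 0.84), beside 2.18% of probe sets called higher. Among them were Mmrn1 (multimerin 1), Alox12 (platelet lipoxygenase, 1.345 ± 0.20), Rgs18 (1.22 ± 0.22) and Ctla2a (1.20 ± 0.23). Mmrn1 was above the dim level on 4 of 4 GATA1s arrays, at 5.97 to 7.59, but on only 1 of 4 WT arrays, where it ranged from 3.12 to 5.62, and is given no fold. In ERG/GATA1s against WT at E14.5, 13 rose and 1, the membrane protein Stom, fell, with 9.16% of probe sets called and 4.47% higher. In ERG against WT at E14.5, Rgs18, a brake on platelet receptors that signal through G proteins, fell by 1.455 ± 0.32, Ppbp by 1.04 ± 0.18 and Pf4 by 0.955 ± 0.21, while Ctla2a rose by 1.52 ± 0.32. The mean over the 18 was 6.433 and 6.489 in E14.5 ERG, against 6.531 and 6.728 in E14.5 WT, and 7.226 to 7.681 on the 4 arrays with the allele at that stage. Of the 6 tested megakaryocyte check markers, 4 (Rgs18, Ppbp, Pf4, Vwf) fell in E14.5 ERG against WT, beside 0.504% of probe sets called lower. Rgs18, Ppbp and Pf4 are the genes of the list of 18 already named, so this is no separate result. Of those 18, 3 fell, 1 rose and 7 had differences above 0, with a median of -0.15. In the same comparison Itgb3 fell and Gp5 rose. The part of megakaryocyte number in these results was not tested.

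Markers of other cells also differed between the groups. In GATA1s against WT over both stages, 3.81% of probe sets were called in either direction and 2.18% higher. There 3 of 12 endothelial markers (Tie1, Pecam1, Vwf) rose and none of 11 macrophage markers passed. Of 9 mast cell, basophil and eosinophil markers, 1 (Epx) fell. In the same comparison 3 of 11 erythroid markers (Sptb, Rhd and Ermap; list median -0.41) and 1 of 11 hepatocyte markers (Afp) fell, and none of 10 neutrophil markers passed, though all 10 differences were above 0 (median 0.38). Array means of a list were compared within a stage. With 2 arrays a side, a lack of overlap is common: it held for 35.4% of probe sets in ERG against WT at E14.5. Its share was not counted for GATA1s against WT or for list means, so the separations below are descriptions. The endothelial mean was 6.569 and 6.722 in GATA1s, against 6.349 and 6.648 in WT, at E14.5, and 5.911 and 6.063 in GATA1s, against 5.988 and 5.959 in WT, at E12.5, with overlap at both. The macrophage mean was 6.744 and 6.912 in GATA1s, against 6.637 and 6.916 in WT, at E14.5, with overlap. At E12.5 it was 5.256 and 5.325 in GATA1s, against 5.631 and 5.55 in WT, without overlap. The mean of the mast cell, basophil and eosinophil list was also lower without overlap at E14.5, at 5.126 and 5.28 in GATA1s, against 5.544 and 5.302 in WT. In GATA1s the E12.5 hepatocyte means were lower, 8.29 and 8.258, against 9.431 and 9.312 in WT. The E14.5 hepatocyte means were higher, 10.896 and 10.973, against 10.157 and 10.839 in WT. Neither pair overlapped, and the comparison over both stages averaged these opposite differences. Erythroid means were lower in GATA1s at each stage without overlap, narrowly so at E14.5 (10.326 and 10.115, against 10.739 and 10.342 in WT). Neutrophil means were higher without overlap only for E12.5 (8.573 and 8.694, against 8.296 and 7.873 in WT). Cd163, Mcpt8, Fcer1a and Ms4a2 were at or below the dim level on all arrays. In ERG against WT at E14.5, where 0.504% of probe sets were called lower, the macrophage genes Csf1r and Mertk fell. The mast cell and eosinophil genes Cpa3, Epx, Prg2 and Hdc and 4 of 10 neutrophil markers also fell there. In ERG/GATA1s against ERG over both stages, all 10 neutrophil markers rose, beside 4.02% of probe sets called higher. Their median was 1.37, against 1.31 for the 6 receptor genes. At E14.5, 8 of the 10 rose in that comparison, beside 3.6% of probe sets called higher. The median was 1.95, against 1.40 for the receptor genes. In ERG/GATA1s against WT over both stages, 9 of 11 erythroid markers fell, where 10.6% of probe sets were called in either direction and 4.06% higher. The part of these cells in the receptor values was not tested.

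**Figure D4:**
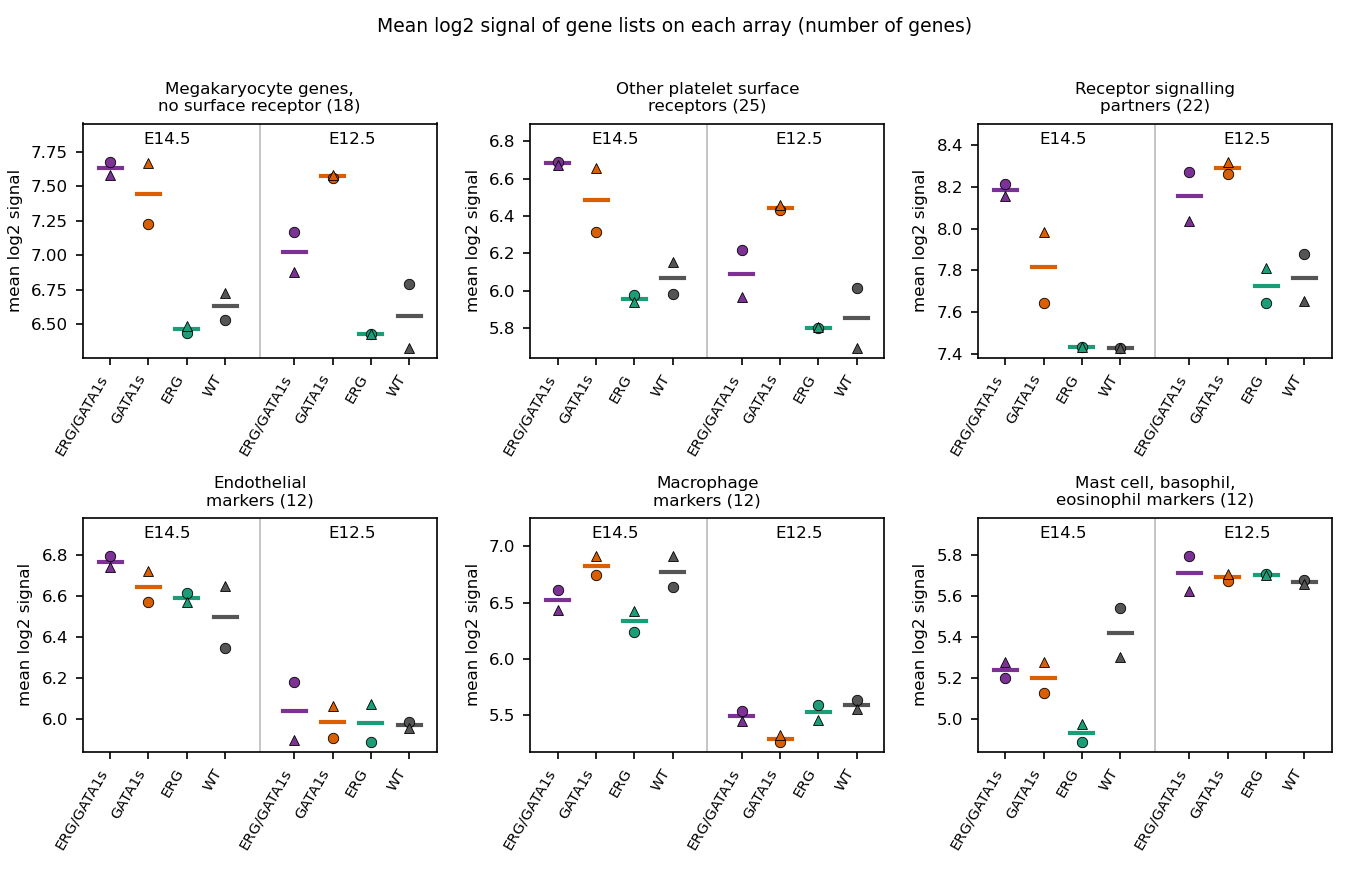
Mean log2 signal (vertical axes, each with its own range) of 6 gene lists on each array, with the number of genes averaged in brackets. Circles are arrays labelled female, triangles arrays labelled male and bars the group mean. The mean of the 18 megakaryocyte genes that are not receptors was 7.226 to 7.681 with the GATA1s allele at E14.5 and 6.433 to 6.728 without it, whereas the endothelial and macrophage means divided mainly by stage.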

How the data were processed

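Total RNA was extracted with Trizol from single-cell suspensions of fetal liver, after embryos were genotyped by PCR, and labelled with an Affymetrix whole-transcript biotin kit, per the labels' protocols. The authors deposited RMA log2 signals, 1 per probe set, per the submitters' processing notes; no version is given. Background correction was not varied, since scanner files were not used here.

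The probe set of highest mean stood for a symbol. Of 28270 probe sets, 16258 test units were above the 30th percentile (3.74) on at least 2 arrays. The fit (R 4.3.3, limma 3.58.1, lmFit and eBayes) took all 16 arrays, with 8 group means and labelled sex, leaving 7 residual degrees of freedom. Tests were two-sided, with Benjamini-Hochberg adjustment over all test units at 0.05, for 23 comparisons, and were tested on simulated data. A comparison over both stages is the mean of the differences at each stage. The number of arrays limits the precision.

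Members and lists were chosen with earlier results of these data known. Of each list, up to 4 called genes of largest change are named. Alternatives were other filters, scalings, covariates, weights and leaving out each array. Both the fit without the 3 arrays that oppose their sex label and the fit with Y-linked signal as covariate were chosen after seeing the data. Marker lists were endothelial, macrophage, mast cell, basophil and eosinophil, neutrophil, hepatocyte, erythroid, stellate, and stem and progenitor genes. Of the last 2, none of 10 and none of 11 passed in GATA1s against WT over both stages.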

Additional observations from a re-analysis of the deposited data

Results flagged for a closer look

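The ERG effect on Treml1 had opposite signs at the 2 stages in the pair of arrays labelled female. In the pair labelled male the E12.5 difference was only -0.02, well within the residual SD of Treml1 (0.206). At E14.5 Treml1 was 8.24 and 8.31 in ERG, against 7.51 and 7.68 in WT. At E12.5 it was 7.24 and 7.53 in ERG, against 7.91 and 7.55 in WT. The stage difference of the ERG effect was 1.025 ± 0.26 (SE) on the log2 scale, and by limma its adjusted p was 0.190, so the ERG effect on Treml1 is not shown to differ between stages.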

How the results depend on the processing

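No paired analysis was possible because the labels carry no replicate numbers; labelled sex, a term of every fit unless stated, was the only block. Without it, no count of called members moved by over 1.5 times. Of 138 gene results, 49 passed the test and none of these changed sign under the 27 settings tried. Without any filter on dim probe sets, 1 member was called in ERG/GATA1s against ERG at E12.5 and 1 between stages in GATA1s. Centring each array on its median left 0 in ERG/GATA1s against ERG at E12.5. With eBayes trend and robust options, 1 member (Itgb3, lower) was called in ERG against WT over both stages. With arrayWeights, 3 members were called in ERG/GATA1s against WT over both stages, 0 against ERG at E12.5, 2 against GATA1s at E14.5 and 1 between stages in ERG/GATA1s. With only the arrays compared, which leaves few residual degrees of freedom, 0 were called in GATA1s against WT at either stage, ERG against WT at E14.5, ERG/GATA1s against WT or ERG at E14.5, and between stages in WT, ERG and GATA1s, and 3 in ERG/GATA1s against WT at E12.5. Without the 3 arrays that oppose their sex label, 3 members were called over both stages in GATA1s against WT and in ERG/GATA1s against WT or ERG. The same setting left 0 in GATA1s against WT at either stage, ERG against WT at E14.5, ERG/GATA1s against ERG at E12.5 and between stages in GATA1s and ERG/GATA1s, 2 in ERG/GATA1s against WT at E14.5 and 1 against ERG. Leaving out single arrays gave 3 to 6 members in GATA1s against WT over both stages, 0 to 6 at E12.5 and 0 to 5 at E14.5. It gave 0 to 1 in ERG against WT over both stages, 0 to 3 at E14.5 and 0 to 1 for the stage difference of the ERG effect. In ERG/GATA1s it gave 0 to 2 against WT at E12.5, 0 to 4 against ERG at E12.5, 0 to 3 against GATA1s at E14.5 and 0 to 1 for the interaction at E14.5. Between stages it gave 0 to 2 in WT, 0 to 3 in GATA1s and 0 to 3 in ERG/GATA1s. Several of these ranges reach above the count of the full set. Examples came without the E14.5 GATA1s female array (5 in GATA1s against WT at E14.5), the E14.5 GATA1s male array (3 in ERG/GATA1s against GATA1s at E14.5) and the E12.5 ERG/GATA1s female array (2 in ERG/GATA1s against WT at E12.5). The causes were not tested. A group with 1 array left was assumed to vary like the others. Members lay above the dim level on all arrays.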
